A study of Mus musculus with 50 samples.

Results

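Transcripts known mainly from liver and intestine were read in mouse lymph nodes, organs that are not known as a main source of them. The 9 genes, chosen by name, were Alb, Ttr, Apoa1, Apoa2, Apoc3, Apob, Apoa4, Fabp1 and Fabp2, and all 9 were among the 56600 gene entries of the deposited table. They were picked after results of these data were known, so their fold changes and calls are given as a description, without p-values. Of the 9, 5 (Alb, Ttr, Apoa1, Apoa2 and Fabp1) had enough counts to be tested, among 18077 genes in all. Alb, Ttr, Apoa1 and Apoa2 had enough only through the libraries of the vitamin A-sufficient diet, where they were high. Apob, Apoc3, Apoa4 and Fabp2 are described by their levels.

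The nodes came from C57B6 mice killed at postnatal day 56, whose dams had begun their diet 3 weeks before mating. The sufficient diet held vitamin A at 20 IU/g, and the deficient diet had the same ingredients without it. Duodenal, jejunal, ileal and colonic nodes, which drain the gut, and the inguinal node, which drains skin, gave 5 poly(A) RNA libraries each per diet, 50 in all. Deficient libraries were all from females, sufficient libraries numbered 1 and 2 were from females, and 3 to 5 were from males. The litters were later ones, not the first, of dams kept on 1 diet, so litter, dam and diet cannot be told apart. Columns of the deficient libraries, and none of the sufficient ones, also carry the mark "3rd" in the deposited table, whose meaning is not stated. The labels do not tie nodes to mice, so a p-value here speaks of library-to-library spread, which may be partly technical.

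Hepatocytes make albumin (Alb), the main carrier protein of plasma, and transthyretin (Ttr), which carries thyroxine and, bound to Rbp4, retinol. Apolipoproteins coat the fat particles of blood and chyle: Apoa1 and Apoa2 are the main proteins of HDL, Apob is the scaffold of VLDL and chylomicrons, and Apoc3 restrains lipoprotein lipase. Apoa4 is made mostly by enterocytes and rides on chylomicrons. Fabp1 and Fabp2 bind fatty acids inside liver and gut cells, Fabp1 in both and Fabp2 in enterocytes. Chylomicrons leave the gut in lymph that passes the mesenteric nodes. Lymph carries the proteins of these genes, and the values below are of polyadenylated RNA.

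Positions were looked up by identifier in GENCODE M21 on GRCm38. The submitters' notes name both GRCm39 and mm10, and which of them served for the counts is not stated. Apoa1 (chr9:46228580-46230466, plus strand), Apoc3 (chr9:46232933-46235636, minus strand) and Apoa4 (chr9:46240696-46243459, plus strand) form a cluster with gaps of 2466 and 5059 bases. Alb lies at chr5:90460897-90476602, Apoa2 at chr1:171225054-171226379, Apob at chr12:7977648-8016835, Fabp1 at chr6:71199827-71205023 and Fabp2 at chr3:122895072-122899506, all on the plus strand. Apoa4 overlaps 2 antisense genes, Gm47528 and Gm10680, and Fabp2 overlaps the antisense gene 4933405D12Rik. The sources used here do not say whether the counting used strand, so the values of Apoa4 and Fabp2 are uncertain.

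Promoters were compared because Alb and Apoa2 moved together across libraries while Fabp1 did not. The plus-strand sequences run 5′ to 3′ upstream of the RefSeq start on GRCm38.p6, and capitals mark GTTAAT, an arm of the site of the liver factor HNF1, or TATAAA, the letters of a TATA box. The stretch of Fabp1 stops where the GENCODE gene begins.
Alb, chr5:90460620-90460869: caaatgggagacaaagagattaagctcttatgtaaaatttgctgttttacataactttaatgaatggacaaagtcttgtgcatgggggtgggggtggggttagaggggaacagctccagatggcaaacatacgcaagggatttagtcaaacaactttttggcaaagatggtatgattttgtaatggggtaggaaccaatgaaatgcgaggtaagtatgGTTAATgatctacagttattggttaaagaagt
Apoa2, chr1:171224804-171225053: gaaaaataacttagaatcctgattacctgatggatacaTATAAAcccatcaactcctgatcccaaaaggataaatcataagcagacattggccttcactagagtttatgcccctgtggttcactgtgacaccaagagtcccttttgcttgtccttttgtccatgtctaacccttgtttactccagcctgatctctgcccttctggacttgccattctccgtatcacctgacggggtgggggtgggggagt
Fabp1, chr6:71199629-71199826: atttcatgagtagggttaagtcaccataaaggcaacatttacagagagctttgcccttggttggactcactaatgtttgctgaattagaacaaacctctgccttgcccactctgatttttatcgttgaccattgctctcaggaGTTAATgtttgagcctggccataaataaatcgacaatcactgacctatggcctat
GTTAAT, searched on both strands, was 32 bases before the start of Alb and 107 bases before that of Fabp1. The search covered 8 RefSeq promoters of 7 of the 9 genes, without Apoc3 and Ttr. GTTAAT was in 2 of the 8 and in 6.43% of all 32851. TATAAA was in 3 of the 8, at 30 bases before the start of Fabp1, 60 before that of Apob and 212 before that of Apoa2 (1 of its 2 listed promoters), and in 12.4% of all. The match in Apoa2 thus lies far upstream of where a TATA box sits. CAAAGTCCA, the core bound by HNF4, was in none of the 8 and in 0.384% of all. A match here is a run of letters, and no binding was measured.

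Libraries held 5335369 to 8904722 estimated counts (median 7640371), so that 1 count stood for 0.106 to 0.225 CPM. Levels below are in CPM, counts scaled to a common library size with TMM factors, which are not corrected for transcript length and are therefore compared only within a gene. The library of sufficient duodenal node 3 stood apart: 8 of the 9 genes, Apoa4 excepted, were highest of all 50 libraries there, and so were 23 of 29 other hepatocyte genes. The pancreatic acinar genes summed to 463100 CPM in sufficient duodenal library 5 and to 361200 CPM in deficient duodenal library 4, and to at most 37320 CPM in the other 48. The transcript Gm19220 took 1.03% to 1.7% of counts in 10 deficient libraries and at least 5.37% in the other 40. The lymphocyte genes Cd3e (66.4 to 155.4 CPM) and Cd79a (308.2 to 929.4 CPM) were present in all 50. Several results that rest on these libraries are given with and without them. Others are given only with them, among them the pooled level of Ttr on the deficient diet, the correlations and the median ratios to Alb. Of the diet estimates of the 9 genes, only that of Alb in gut-draining nodes is also given without the libraries low in Gm19220.

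**Figure D1:**
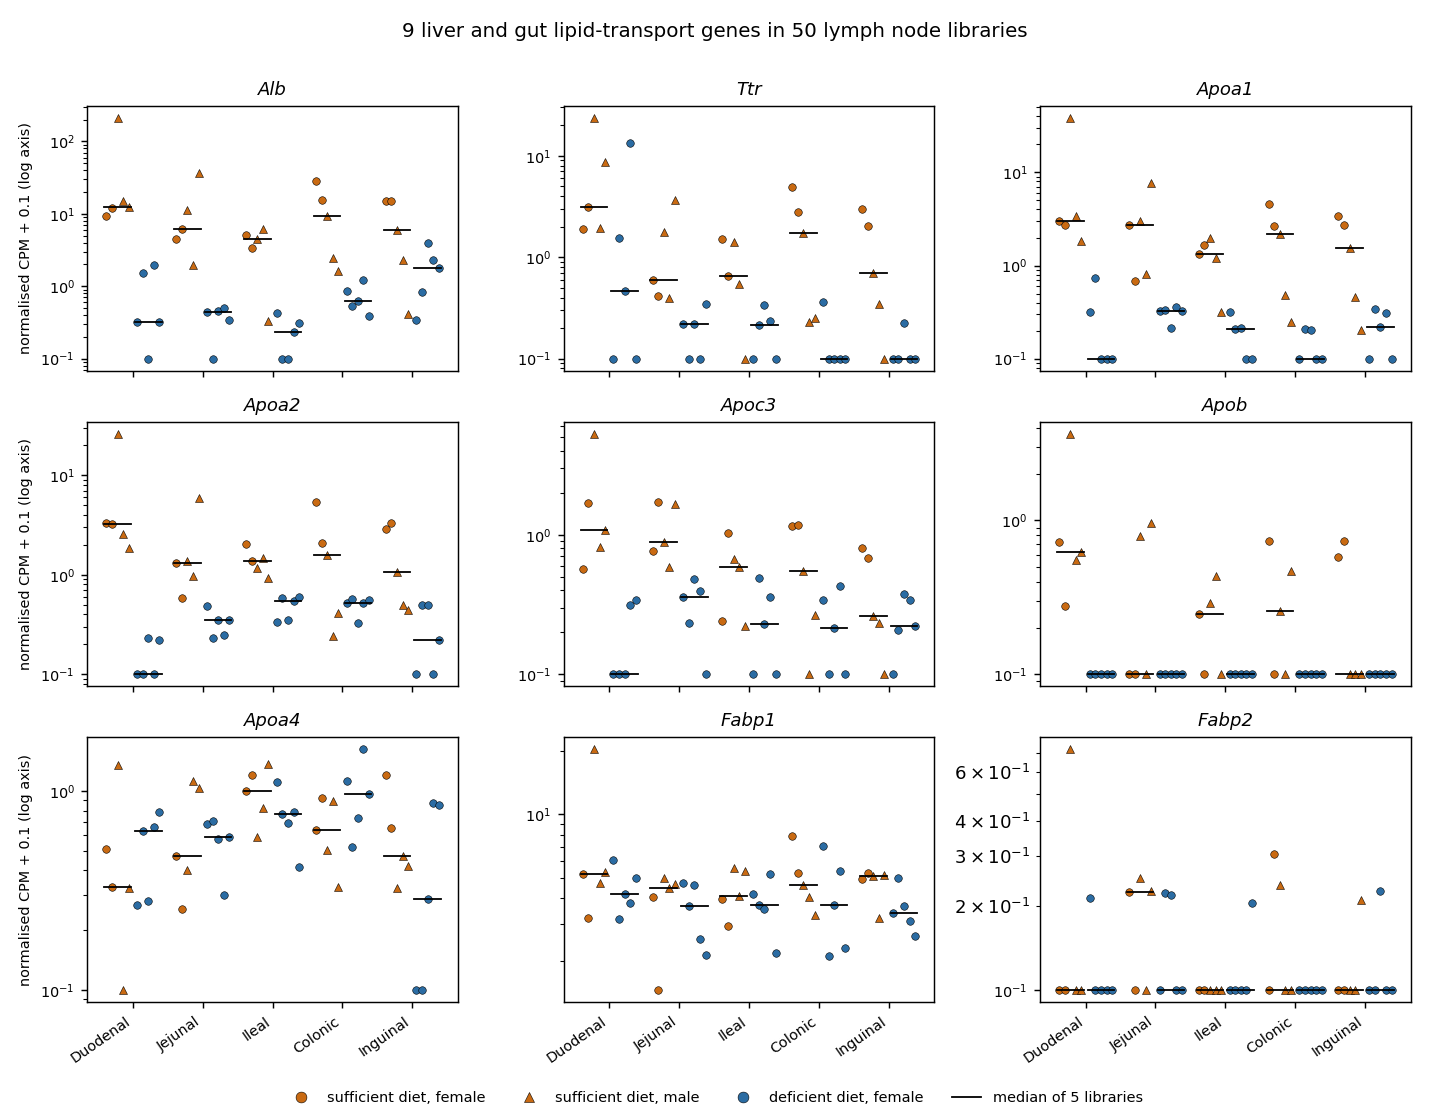
Level of each of the 9 genes in the 50 libraries (CPM plus 0.1 on a log axis) by node, with sufficient libraries in orange (circles female, triangles male), deficient ones in blue and the median of each 5 as a line. Alb, Apoa1, Apoa2 and Apoc3 sit lower on the deficient diet in most nodes, Apob is at 0.1 (no counts) in all 25 deficient libraries, and Fabp1 and Apoa4 overlap.

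Alb was found in all 25 sufficient libraries and was sparse on the deficient diet. In duodenal nodes of sufficient mice, libraries 1 to 5 read 9.21, 12, 211, 15 and 12.3 CPM, and in jejunal nodes 4.37, 6.05, 11.2, 1.87 and 36.6 CPM. Ileal nodes read 5.06, 3.25, 4.36, 5.99 and 0.227 CPM. Library 3 of the duodenal node was thus more than 10 times any other of its group, and library 5 was the highest of the jejunal and the lowest of the ileal node. Colonic nodes read 28.4, 15.3, 9.35, 2.33 and 1.5 CPM, and inguinal nodes 15.1, 14.9, 5.91, 2.2 and 0.319 CPM. In these last 2 nodes the female libraries were above the male ones, whereas in duodenal nodes the male libraries were above the female ones. In jejunal nodes male libraries 3 and 5 were above both female ones and male library 4 below them. Over the 25 sufficient libraries the median was 10.6 CPM in the 10 from females and 5.91 CPM in the 15 from males. By number it was 9.21 and 12 CPM for 1 and 2 (female) and 9.35, 2.33 and 1.5 CPM for 3 to 5 (male), so number 3 was level with number 1.

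Alb in deficient mice read 0.22, 1.41, 0, 1.85 and 0.224 CPM in duodenal nodes and 0.343, 0, 0.348, 0.394 and 0.24 CPM in jejunal nodes. Ileal nodes read 0.331, 0, 0, 0.134 and 0.207 CPM, and colonic nodes 0.756, 0.437, 0.52, 1.13 and 0.285 CPM. Inguinal nodes held the highest deficient levels, at 0.245, 0.735, 3.8, 2.17 and 1.69 CPM. The highest of these was 30.2 estimated counts, and 4 of the 25 deficient libraries had no Alb count. In the gut-draining nodes the deficient libraries were between 0 and 1.85 CPM and the sufficient ones between 0.227 and 211 CPM, with all but 2 of the 20 sufficient libraries above every deficient one.

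Ttr was high where Alb was high on the sufficient diet, and it was high with little Alb in 1 deficient duodenal library. Sufficient duodenal nodes read 1.79, 3.05, 23.5, 1.85 and 8.66 CPM, jejunal nodes 0.496, 0.31, 1.67, 0.296 and 3.53 CPM, and ileal nodes 1.42, 0.551, 1.32, 0.439 and 0 CPM. Colonic nodes read 4.87, 2.68, 1.64, 0.132 and 0.154 CPM and inguinal nodes 2.92, 1.93, 0.604, 0.249 and 0 CPM. As with Alb, the highest library was duodenal library 3, and colonic and inguinal libraries 1 and 2 were above libraries 3 to 5. Deficient duodenal nodes read 0, 1.46, 0.368, 13.3 and 0 CPM, and the other 20 deficient libraries lay between 0 and 0.258 CPM. Of all 25 deficient libraries, 14 had no Ttr count.

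Pancreatic islets are another known source of Ttr, and their markers are given beside it. In deficient duodenal library 4, where Ttr was 13.3 CPM, Ins2 (insulin) was 57.3 CPM, Ins1 20.1 CPM and Ppy (pancreatic polypeptide) 9.19 CPM, and the 12 listed islet genes summed to 100.1 CPM. In deficient duodenal library 2, with Ttr at 1.46 CPM, Ins2 was 1.62 CPM and the sum was 4.36 CPM. Over the sufficient libraries the sum was 0 to 3.37 CPM, the latter in duodenal library 5, where Ttr was 8.66 CPM and Ins2 0.227 CPM. None of the 12 passed the filter, 9 had a median of 0 on both diets, and Gcg (glucagon) reached at most 0.568 CPM. Their part in the Ttr values was not tested. Chga, Pcsk2 and Iapp were also on that list, with up to 3.1, 1.69 and 3.45 CPM.

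Apoa1, the main HDL protein, read 2.9, 2.61, 38.3, 3.28 and 1.74 CPM in sufficient duodenal nodes and 2.66, 0.59, 2.89, 0.706 and 7.58 CPM in jejunal nodes. Ileal nodes read 1.23, 1.57, 1.89, 1.12 and 0.216 CPM. Colonic nodes read 4.52, 2.56, 2.09, 0.378 and 0.146 CPM, and inguinal nodes 3.31, 2.63, 1.44, 0.357 and 0.104 CPM. Duodenal library 3 and jejunal library 5 were again the highest of their nodes and ileal library 5 the lowest of its node. On the deficient diet 10 of 25 libraries had no count, and the highest, duodenal library 2, had 0.632 CPM, or 4.78 counts. All deficient jejunal libraries held some, between 0.113 and 0.257 CPM.

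Apoa2, the other main HDL protein, read 3.24, 3.18, 26.2, 2.49 and 1.75 CPM in sufficient duodenal nodes and 1.21, 0.482, 1.28, 0.872 and 5.8 CPM in jejunal nodes. Ileal nodes read 1.96, 1.27, 1.07, 1.39 and 0.827 CPM. Ileal libraries were within a narrow range, library 5 included, where Alb and Ttr were lowest for that node. Colonic nodes read 5.31, 2.01, 1.48, 0.142 and 0.316 CPM, and inguinal nodes 2.77, 3.19, 0.973, 0.399 and 0.341 CPM. Deficient libraries lay between 0 and 0.502 CPM. Within them, ileal nodes read 0.233 to 0.502 CPM, colonic nodes 0.227 to 0.466 CPM and duodenal nodes 0 to 0.133 CPM, at no more than 4.6 counts a library. In the main fit Apoa2 was not called between deficient duodenal and the other gut-draining nodes (-2.29 ± 1.16 in log2).

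Apob and Apoc3, of the VLDL and chylomicron surface, were low throughout. Apob had 66.5 estimated counts over the 25 sufficient libraries, of which 22.8 were in duodenal library 3, and no count in any of the 25 deficient libraries. In sufficient duodenal nodes it read 0.626, 0.176, 3.57, 0.454 and 0.523 CPM, and 10 of the 25 sufficient libraries were at 0. The absence of counts over the deficient libraries allows a pooled level of up to 0.0147 CPM (3 counts, counting error only). Apoc3 read 0.466, 1.58, 5.22, 0.718 and 0.98 CPM in sufficient duodenal nodes and 0.666, 1.62, 0.784, 0.491 and 1.56 CPM in jejunal nodes. In deficient mice it lay between 0 and 0.388 CPM, with 9 of 25 libraries at 0.

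Fabp1, the liver fatty acid-binding protein, was present at similar levels on both diets and in all 5 nodes. Its lowest, median and highest sufficient libraries read 1.36, 4.63 and 20.2 CPM, and its deficient ones 2.02, 3.59 and 6.96 CPM. The highest was again duodenal library 3, and the other 24 sufficient libraries reached 7.74 CPM. Fabp1 and Alb thus parted in the deficient libraries, where Fabp1 had at least 15 counts in each. Fabp2, the intestinal form, was at 0 in 38 of 50 libraries and had 4 counts at most, in sufficient duodenal library 3. Apoa4 read 0, 0.492 and 1.27 CPM (lowest, median and highest) on the sufficient and 0, 0.584 and 1.53 CPM on the deficient diet, and the diets overlapped fully. It was the only one of the 9 genes whose highest library was not sufficient duodenal library 3, where it read 1.25 CPM.

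Ordered by group mean over the 10 groups, Alb was highest in sufficient duodenal nodes (51.8 ± 88.7 CPM, SD, n = 5), followed by sufficient jejunal (12 ± 14.2), colonic (11.4 ± 11.1), inguinal (7.68 ± 6.97) and ileal nodes (3.78 ± 2.22). Deficient inguinal (1.73 ± 1.39), duodenal (0.742 ± 0.833), colonic (0.625 ± 0.329), jejunal (0.265 ± 0.158) and ileal nodes (0.135 ± 0.142) came after them. Of the 9 neighbouring pairs in this order, 8 differed by less than the larger SD of the pair. The same held for 8 pairs of Apoa1 and Ttr, for 7 of Apoa2 and for all 9 of Apoa4, Apoc3 and Fabp1. For Apob and Fabp2 it held for every pair save those in which both groups were at 0. For Apoa1 and Apoa2 the step from sufficient ileal nodes, the lowest of that diet, to the highest deficient group exceeded the spread. For Ttr, deficient duodenal nodes ranked next to sufficient duodenal nodes, at 3.03 ± 5.79 CPM.

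The diet comparison asked whether the deficient diet changed these transcripts, in the mean of the 4 gut-draining nodes and in inguinal nodes. Pooled over 25 libraries a diet, Alb was 24.1-fold higher on the sufficient diet (16.5 against 0.683 CPM), Apoa1 26.6-fold and Apoa2 10.8-fold. Apob was at least 25.7-fold higher, against the limit above, Apoc3 5.29-fold and Ttr 4.98-fold, whereas Fabp1 and Apoa4 differed by 1.33-fold and 1.07-fold. Fabp2 was 2.33-fold higher, on only 9.976 against 4.955 counts. Of the 95.8 deficient counts of Ttr, 70.9 were in duodenal library 4, which holds its pooled folds down. The Ttr fold without that library was not computed. Without sufficient duodenal library 3 the folds were 13.4 for Alb, 16.1 for Apoa1, 7.27 for Apoa2, at least 17.5 for Apob, 4.15 for Apoc3 and 3.29 for Ttr. With females alone on both diets they were 16.4, 19.7, 9.89, at least 19.1, 5.75 and 4.2 in the same order. In bulk tissue, fewer cells of a type and less RNA per cell cannot be told apart.

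In gut-draining nodes the model gave a log2 fold change, deficient against sufficient, of -5.27 ± 0.68 (SE) for Alb, -4.51 ± 0.63 for Apoa1, -3.75 ± 0.52 for Apoa2 and -3.44 ± 0.80 for Ttr. Fabp1 was at -0.18 ± 0.23. Of the 5 genes tested, 4 were past an adjusted p of 0.05 and lower, where 9.05% of all genes were lower and 20.4% were called in either direction. Because these genes were proposed with this contrast known, nothing is read from that count. Alb, Apoa1, Apoa2 and Ttr also passed the filter only through the sufficient libraries. In any deficient library Apoa1 had at most 4.78 counts and Apoa2 at most 4.6. Over all nodes, sufficient libraries above every deficient one numbered 18 of 25 for Alb, 19 for Apoa1, 20 for Apoa2 and 18 for Apoc3. They numbered 15 for Apob, 5 for Fabp2 (at most 3.99 counts), 2 for Fabp1, 1 for Ttr and 0 for Apoa4. The number for Ttr rests on deficient duodenal library 4 at 13.3 CPM, as the next deficient library was at 1.46 CPM. Females alone gave -4.47 ± 0.35 for Alb and -2.69 ± 0.73 for Ttr, and leaving out sufficient duodenal library 3 gave -4.99 ± 0.54 and -3.32 ± 0.75. Without the 10 libraries low in Gm19220, Alb was at -4.89 ± 0.85.

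In inguinal nodes the estimates were -2.21 ± 0.92 for Alb, -3.62 ± 1.10 for Apoa1, -3.20 ± 0.92 for Apoa2, -4.98 ± 1.70 for Ttr and -0.25 ± 0.39 for Fabp1. None of the 5 was called, where 0.852% of all genes were. With females alone 3 were called (Alb -3.10 ± 0.58, Apoa1 -4.48 ± 0.76, Apoa2 -4.03 ± 0.59), and without sufficient duodenal library 3 the calls were 2, Apoa1 and Apoa2. The difference between the diet effects in gut-draining and inguinal nodes was largest for Alb (-3.05 ± 1.15 in log2), and none of the 5 passed there, against 0.935% of all genes. Gut-draining and inguinal nodes are therefore not shown to differ in the diet effect on these genes.

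**Figure D2:**
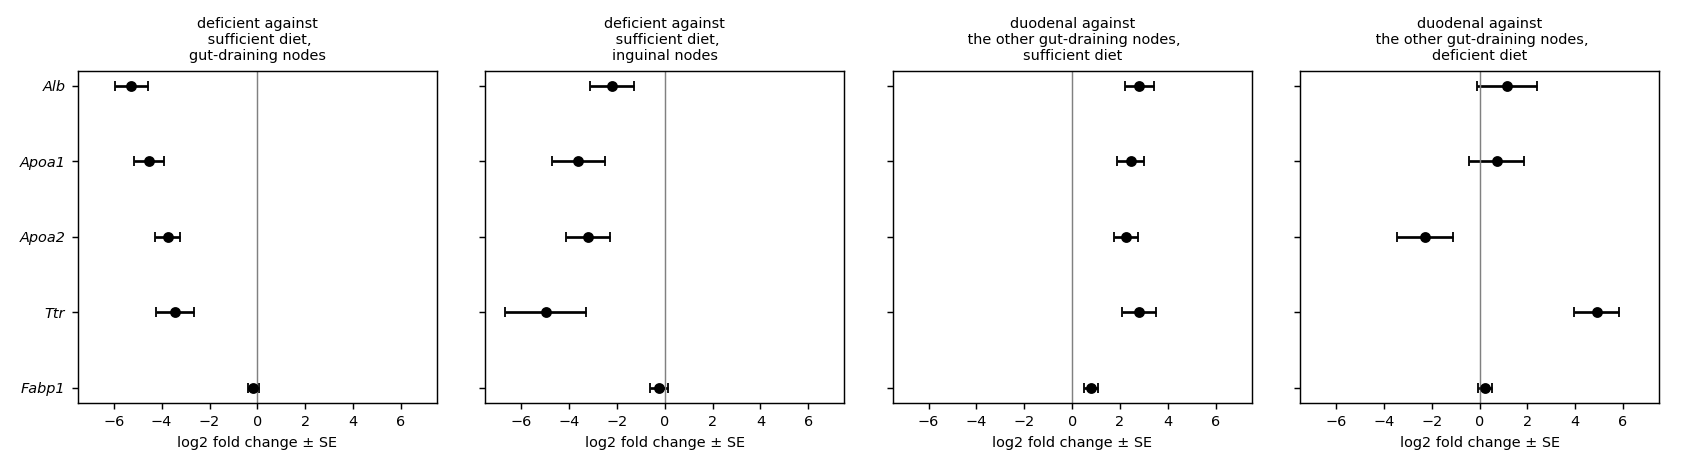
Log2 fold change ± SE of the 5 tested genes in the diet comparison of gut-draining and of inguinal nodes and in the comparison of duodenal with the other gut-draining nodes on each diet. Fabp1 stays within 1 of 0 in all 4 panels, and Ttr at 4.90 is the farthest to the right, in deficient duodenal nodes.

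Other hepatocyte genes were set beside Alb. Of 31 listed, 29 were in the table and 19 were tested. In gut-draining nodes 9 of the 19 fell and 1 rose on the deficient diet, where 9.05% of all genes were lower and 20.4% were called in either direction. The list median was -0.70 against -0.00317 for all genes. As the list was chosen with earlier results of these data known, its counts and adjusted p-values are a description. Among the 9, named after their values were seen, were the plasma protease inhibitor gene Serpina3k (-3.98 ± 0.61, adjusted p = 3.43e-06 in edgeR's quasi-likelihood test), the vitamin D-binding protein Gc (-4.73 ± 0.92, adjusted p = 0.000246) and fetuin Ahsg (-2.84 ± 0.53, adjusted p = 8.85e-05). The major urinary protein gene Mup3 (-3.74 ± 0.68) and Serpina1c (-3.24 ± 0.63) also fell, though both have near-identical copies whose reads may be split. On the deficient diet Serpina3k, Gc, Ahsg, Mup3 and Serpina1c reached at most 0.385, 0.992, 0.831, 0.507 and 0.94 CPM. They passed the expression filter only through sufficient libraries, where they were high. Genes kept in this way are prone to be called lower on the deficient diet, so nothing is read from the count of 9. Without sufficient duodenal library 3 the counts were 10 lower and 1 higher of 19, and with females alone 11 lower and 1 higher of 22. In inguinal nodes, where 0.852% of all genes were called, only Ahsg fell (-4.98 ± 1.18, adjusted p = 0.0226).

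The 4 most abundant genes of that list had smaller differences. Pck1 of gluconeogenesis (median 70.2 CPM sufficient, 80.4 CPM deficient; 0.03 ± 0.42) and Cyp2e1 (67 and 50.7 CPM; 0.10 ± 0.32) did not pass in gut-draining nodes. The urea cycle enzyme Ass1 rose (0.62 ± 0.06, adjusted p = 3.62e-11 in edgeR), and vitronectin Vtn fell slightly (-0.32 ± 0.09, adjusted p = 0.011). Rbp4, the retinol carrier that travels with transthyretin, had a median of 9.7 CPM on the sufficient and 6.36 CPM on the deficient diet (-0.19 ± 0.39, adjusted p = 0.794). These levels dominate the sum over the list, which ran from 197 to 730 CPM on the sufficient and from 213 to 578 CPM on the deficient diet and did not separate the diets. Hrg was the only listed hepatocyte gene with a median of 0 on both diets.

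Several defining markers of gut epithelium were at or near 0 in these nodes, and others had counts in every library. Of 29 such genes 11 had a median of 0 on both diets, among them Alpi, Sis and Fabp6, and Alpi had counts in 1 library only. Among those found in every library were Anpep (median 56.7 CPM sufficient, 29.6 CPM deficient), Dgat1 (33.7 and 29.9 CPM) and Lgals4 (18.7 and 20.2 CPM). An enterocyte source of the chosen liver and intestine genes was not tested, and they are not called enterocyte transcripts here. Vil1 had a median of 0.537 CPM on the sufficient and 0.312 CPM on the deficient diet. The sum over the list was 78.5 to 273 CPM on the sufficient and 84.1 to 241 CPM on the deficient diet. Of 13 tested for diet in gut-draining nodes, where 20.4% of all genes were called, 1 rose (Epcam, 0.69 ± 0.15, adjusted p = 0.000804) and 2 fell, among them Anpep (-0.70 ± 0.14, adjusted p = 0.000236), by edgeR. Mttp, which loads lipid onto Apob, was at 0.14 ± 0.14 (adjusted p = 0.553), and of the regulators only Nr5a2 was tested (-0.60 ± 0.14, adjusted p = 0.00104), while Hnf4a had medians of 0.133 and 0 CPM.

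**Figure D3:**
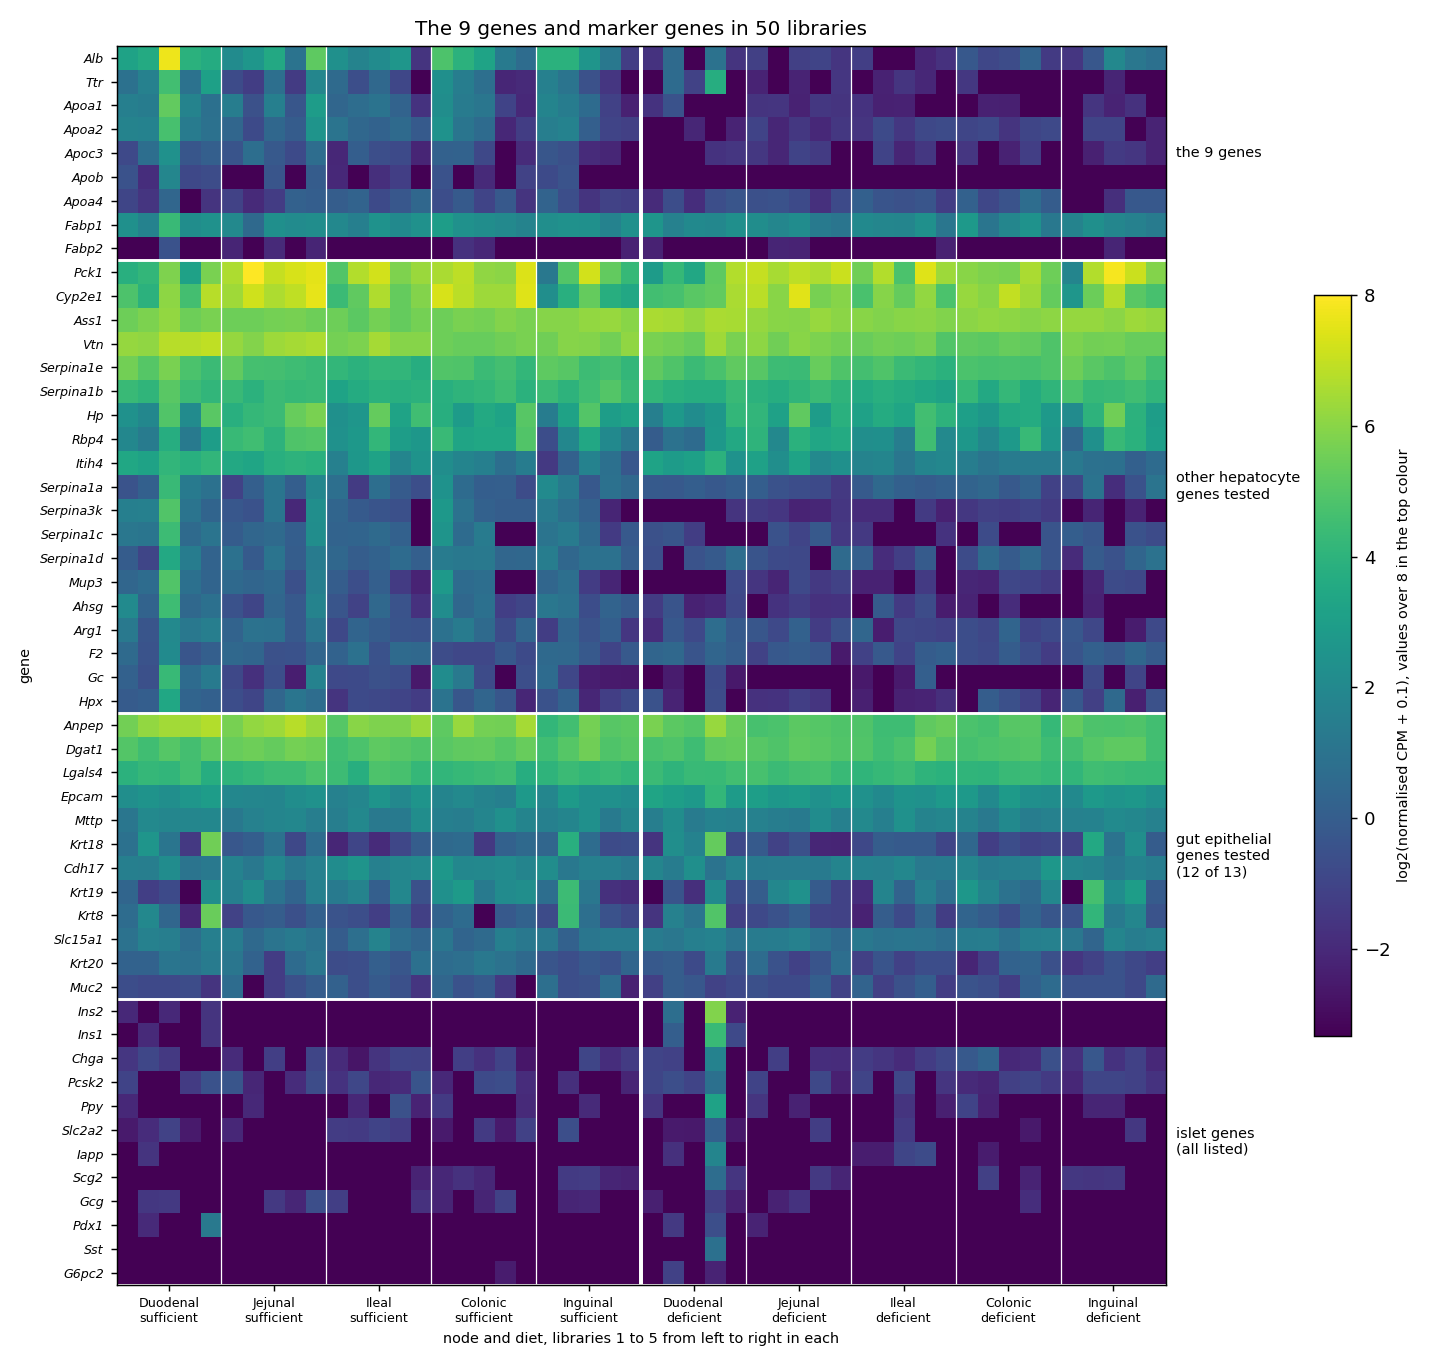
Log2(CPM + 0.1) of the 9 genes, of tested hepatocyte and gut epithelial genes and of all 12 islet genes in the 50 libraries, grouped by node with the sufficient diet on the left. The bright column in the first block is sufficient duodenal library 3, and the islet genes light up in deficient duodenal library 4.

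Duodenal nodes lie next to the pancreas and were compared with the mean of the other 3 gut-draining nodes. On the sufficient diet the log2 fold change was 2.80 ± 0.60 for Alb, 2.45 ± 0.55 for Apoa1, 2.25 ± 0.49 for Apoa2, 2.80 ± 0.71 for Ttr and 0.78 ± 0.28 for Fabp1. Of the 5, 4 were called higher, against 2.47% of all genes higher and 5.61% in either direction, and of the 19 other hepatocyte genes 11 were called higher and 1 (Pck1) lower. Without library 3 none of the 5 was called (Alb 0.62 ± 0.58, Apoa1 0.47 ± 0.55, Apoa2 0.59 ± 0.48, Ttr 1.70 ± 0.77), and the hepatocyte count was 2 higher and 1 lower. Females alone gave no call among the 5, with Alb at 0.45 ± 0.57. Adipocyte genes were lower in the same contrast (8 of 12 tested), and all 25 tested acinar genes were higher. Without the 2 libraries richest in acinar transcripts Alb was at 3.03 ± 0.62, and the part of the adipocyte genes was not tested.

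On the deficient diet Ttr alone of the 5 was called higher in duodenal nodes (4.90 ± 0.94), against 2.82% of all genes higher and 4.2% in either direction. Alb was at 1.15 ± 1.26, Apoa1 at 0.72 ± 1.16 and Apoa2 at -2.29 ± 1.16. Without the 2 libraries richest in acinar transcripts Ttr was at 2.25 ± 1.13 and was not called, and it was not called either without the deficient libraries numbered 4 (2.12 ± 1.20). Apoa2 was called lower with females alone (-2.31 ± 0.65). All 25 tested acinar genes were higher in this contrast, and 2 of 19 hepatocyte genes, Ass1 (0.43 ± 0.07, adjusted p = 3.66e-05 in edgeR) and Itih4 (1.30 ± 0.24, adjusted p = 0.000189), were higher. The duodenal contrast did not differ between the diets for any of the 5, where 0.111% of all genes did, and the widest difference was that of Apoa2 (-4.53 ± 1.22).

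The last comparison set gut-draining against inguinal nodes. In sufficient mice Alb was at 0.85 ± 0.68, Apoa1 at 0.90 ± 0.64, Apoa2 at 0.83 ± 0.57, Ttr at 0.91 ± 0.84 and Fabp1 at 0.09 ± 0.29, and none was called, against 17.2% of all genes. Females alone turned the direction for all 5 genes, with Alb at -0.82 ± 0.53, again without a call. On the deficient diet Alb was lower in gut-draining nodes by the estimate (-2.21 ± 0.93) without being called, and none of the 5 was, against 5.78% of all genes. With females alone Alb was called lower (-2.19 ± 0.47). Apoa1 was near 0 there, with a direction that turned with the setting, and Ttr at 2.46 ± 1.99. The 2 comparisons with inguinal nodes share no libraries, whereas the diet and node comparisons share libraries with each other, and their values are given side by side only.

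Ratios of counts to Alb were taken within sufficient libraries. In the 19 libraries with at least 20 Alb counts, Apoa1 was 21.9% of Alb (median, range 9.76% to 60.8%), Apoa2 18.3% (7.97% to 39.1%) and Ttr 17% (5.13% to 70.5%). The highest Ttr share was in duodenal library 5, and the next was 30.3%. Apoc3 was 5.06% (2.48% to 28.7%) and Apob 2.37% (0% to 6.79%) of Alb by the median, and Fabp1 42.4% (9.62% to 125%). A single deficient library reached 20 Alb counts, inguinal library 3. Apoa1 was at 3.16% and Ttr at 3.31% of Alb there, but these shares rest on 0.955 counts and 1 count. The shares of Apoa2 (10.4%), Apoc3 (7.28%), Apob (0%) and Fabp1 (93.4%) in that library lay within the sufficient ranges. Counts are not scaled for length, so these shares describe the libraries and not molar amounts.

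**Figure D4:**
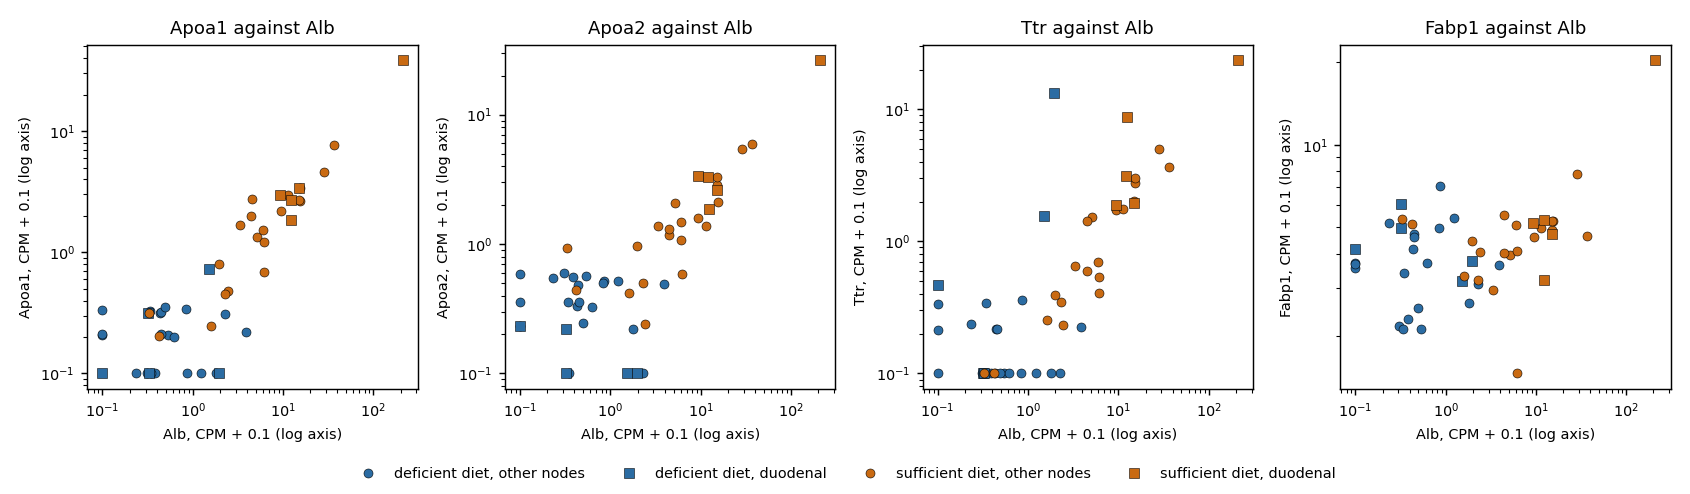
Apoa1, Apoa2, Ttr and Fabp1 against Alb in the 50 libraries (CPM plus 0.1, both axes log), with diets in colour and duodenal nodes as squares. The first 3 rise with Alb on the sufficient diet, deficient duodenal library 4 lies high for Ttr at 13.3 CPM with Alb at 1.85 CPM, and Fabp1 stays mostly between 2 and 8 CPM.

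Across the 25 sufficient libraries Spearman's rho with Alb was 0.93 for Ttr, 0.875 for Apoa2, 0.868 for Apoa1, 0.753 for Apoc3 and 0.696 for Apob. It was 0.375 for Fabp1 and 0.04 for Apoa4. Across the 25 deficient libraries rho lay between -0.349 and 0.374 for every pair without Apob, which had no count there and so no rho. Counts were mostly of 0 to 10, save those of Fabp1, with at least 15 in each library. Libraries of a diet share depth and handling, and nodes may share a mouse, so these values are given as a description. Over all 50 libraries, where rho also carries the diet difference, the genes most like Alb were Mup7, Mup3 and Serpina3k (0.779, 0.779 and 0.769). Those most like Apoa1 were Serpina1c (0.812), Adgre5 (0.801) and Ahsg (0.791), and those most like Apoa2 were Serpina3k (0.809), Mup3 (0.78) and Cd38 (0.754). Within the sufficient libraries alone Adgre5 was at 0.444 with Apoa1 and Cd38 at 0.166 with Apoa2, while Serpina1c and Serpina3k were at 0.843 and 0.856. Apoc3 was most like Mup3 (0.838), Pank3 (0.739) and Gm57204 (0.714), and Ttr like Mat1a (0.82), Gc (0.783) and Ahsg (0.764). Fabp1 was most like the mitochondrial ribosomal gene Mrpl32 (0.631), and Apoa4 like Epb41l3 (0.533).

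Other genes of lipid transport were well expressed in the nodes themselves. Apoe, which macrophages make, had a median of 2660 CPM on the sufficient and 2794 CPM on the deficient diet and rose slightly in gut-draining nodes (0.24 ± 0.07, adjusted p = 0.0128 by edgeR). It was 1 of 13 genes tested there from a list of other apolipoproteins and related genes, some of which, such as Pltp, are not apolipoproteins. Of these 13, 2 rose and 5 fell, against 20.4% of all genes called. Clusterin Clu was at -0.30 ± 0.05 (adjusted p = 1.99e-05), Apol7c at -0.34 ± 0.10 (adjusted p = 0.00915) and the phospholipid transfer gene Pltp at 0.33 ± 0.09 (adjusted p = 0.00477). Of 23 genes of lipoprotein assembly, lipases and receptors 4 rose and 2 fell, a share near that of all genes, with Abcg1 at 0.62 ± 0.10 (adjusted p = 1.45e-05), while Cd36, Lpl and Abca1 did not pass. Of the relatives of Fabp1, the fat cell protein Fabp4 (-0.00349 ± 0.31) and Fabp5 (0.32 ± 0.13, adjusted p = 0.0699) did not pass. In inguinal nodes, where 0.852% of all genes were called, no gene of these 3 lists was.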

How the data were processed

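Poly(A) RNA of 50 mouse lymph node libraries was measured by RNA-seq. The authors deposited estimated counts per gene, which are not whole numbers (0.122% of nonzero values were whole within 1e-06). The submitters' processing notes name kallisto, edgeR, limma, GRCm39 and mm10 without roles. Counts were rounded here for testing. Libraries were grouped by diet and node from the labels. edgeR 4.0.16 in R 4.3.3 kept genes by its expression filter, scaled by TMM and fitted group means with a sex term over all 50 libraries in a quasi-likelihood model. Benjamini-Hochberg adjustment ran over 18077 genes, with a threshold of 0.05. SEs were derived from the fold change and F. CPM values were computed here from unrounded counts. Entries without a name (379) held at most 0.491% of counts. Scripts were tested on simulated data. Alternatives used DESeq2 1.42.0, limma 3.58.1 (voom), other scaling, filters, terms and left-out libraries. The 9 genes and all lists were chosen with earlier results of these data known. Genes named were the 9, the up to 4 most abundant of each list, preset markers and the 3 most alike (Spearman, at least 1 count in 25 libraries), besides those said to be named after seeing values, among them Ins1, Ppy, Iapp, Chga, Pcsk2, Anpep, Itih4, Hrg, Sis, Alpi, Clu, Apol7c, Pltp, Abcg1, Cd36, Lpl, Abca1 and Nr5a2. Some genes of the lists are not reported by name here.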

Additional observations from a re-analysis of the deposited data

Results flagged for a closer look

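In groups of 5 libraries, 39 could be examined for a library far from the others (a gap to the nearest over 0.71 of the range), and 10 were marked. The usual rate of about 1 in 20 for this limit holds for independent, normally distributed values. Here genes share libraries and the CPM values are skewed, so the 10 are not set against that rate. Sufficient duodenal library 3 was far above the next for Alb (211 against 15 CPM), Apoa1 (38.3 against 3.28), Apoa2 (26.2 against 3.24) and Fabp1 (20.2 against 5.21). Sufficient jejunal library 5 was far above for Alb (36.6 against 11.2 CPM) and Apoa2 (5.8 against 1.28). Deficient duodenal library 4 was far above for Ttr (13.3 against 1.46 CPM). Libraries far below were deficient colonic library 3 for Apoa2 (0.227 against 0.415 CPM) and, for Fabp1, sufficient jejunal library 2 (1.36 against 3.94 CPM) and sufficient inguinal library 4 (3.1 against 4.79 CPM).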

How the results depend on the processing

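Counts below are of all genes past the threshold, then of the 5 tested genes. Other scaling, DESeq2, limma-voom, the absence of a filter or sex term, females only and left-out libraries were tried. Leaving out sufficient duodenal library 3, the acinar-rich libraries or those low in Gm19220 was chosen after seeing the data. For gut-draining against inguinal nodes on the sufficient diet, 3101 genes became 1136 with females only and 2201 to 2871 with 1 number left out, and the 5 stayed at 0. On the deficient diet, 1044 became 447 without the libraries low in Gm19220 and 733 to 959 with 1 number left out, and the 5 went from 0 to 1 with females only. For duodenal nodes on the sufficient diet, 1014 became 74 with females only (70.3% higher, against 44%). Leaving out 1 number gave 484 to 863 genes (633, 659 and 484 without numbers 2, 3 and 4) and 0 to 4 of the 5, or 5 calls with Apoc3, which passed the filter without number 1. The 4 calls became 2 by limma-voom, and 0 with females only or without library 3. On the deficient diet, 760 became 414 without the acinar-rich libraries. Leaving out 1 number gave 355 to 995 (432 and 355 without numbers 2 and 4), with 0 to 1 of the 5. The single call became 0 by limma-voom or without the acinar-rich libraries, and 2 with females only. For diet in gut-draining nodes, 3695 became 6051 without the sex term. Leaving out 1 number gave 1995 to 4177 (1995 without sufficient number 2), and 4 of the 5, or 5 calls where Apoc3 passed the filter. For diet in inguinal nodes, 154 became 96 without the filter, 261 by DESeq2, 50 with females only (44% higher, against 64.3%) and 35 without the libraries low in Gm19220. Leaving out 1 number gave 54 to 220 (54 and 73 without sufficient numbers 1 and 2, 82 and 95 without deficient numbers 2 and 3), and 0 to 2 of the 5. There the count of 0 became 2 by DESeq2 or without sufficient duodenal library 3, and 3 with females only. The number as a replicate block gave 3645, 1316, 1298, 856, 3531 and 188 genes in the order above, with 0, 0, 4, 1, 4 and 0 of the 5, and changed no other call. Same-numbered libraries correlated over 0.1 in 34 of 50 sufficient and 23 of 50 deficient pairs, and 32 and 30 of 50 matched best with their own number, a hint of a tie that the labels do not state. Not every pair was over 0.1, so the numbers were not taken as pairs. Of the fold changes of the 5 genes, 450 kept direction and side of the threshold, 13 gained and 19 lost the call, and 18, none of them called, turned direction. For gut-draining against inguinal nodes on the sufficient diet these were, with females only, Alb (-0.82), Apoa1 (-0.46), Apoa2 (-0.54), Fabp1 (-0.31) and Ttr (-0.78), and Fabp1 without duodenal library 3 (-0.0769) or with 1 number left out (-0.0994 to 0.28). On the deficient diet they were Apoa1 by DESeq2 (-0.0226), with the replicate block (-0.0325), without the libraries low in Gm19220 (-0.40) and with 1 number left out (-0.37 to 0.49). Apoa2 (-0.0279 to 0.79) and Fabp1 (-0.00472 to 0.40) turned there with 1 number left out. In deficient duodenal nodes Apoa1 turned by limma-voom (-0.0430) and with 1 number left out (-0.41 to 1.14), and for diet in gut-draining nodes Fabp1 did (-0.48 to 0.12). The cause of these changes was not tested. Depth limits Apob, Apoc3, Apoa4 and Fabp2, where most libraries held a few counts.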

Other observations

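Further plasma protein genes, named after their values were seen, had counts in few deficient libraries. The fibrinogen gene Fga was at 0 in 24 of 25 deficient libraries and reached 11.9 CPM in sufficient duodenal library 3, and Fgb was at 0 in 20 of 25 and reached 13.8 CPM. The urea cycle enzyme Cps1 was at 0 in 24 of 25 deficient libraries and reached 5.16 CPM in the same sufficient library. The epithelial keratins Krt8 and Krt18 were higher in duodenal nodes on both diets by edgeR (Krt8 3.84 ± 0.84, adjusted p = 0.00301, and 3.31 ± 0.81, adjusted p = 0.0085; Krt18 3.79 ± 0.77, adjusted p = 0.00124, and 4.04 ± 0.76, adjusted p = 0.000302). Their highest levels were in the acinar-rich libraries, sufficient duodenal 5 (Krt8 41.96 CPM, Krt18 46.71 CPM) and deficient duodenal 4 (30.11 and 40.06 CPM). Without these 2 libraries neither was called, with Krt8 at 0.84 ± 0.78 (adjusted p = 0.622) and 1.00 ± 0.74 (adjusted p = 0.734) and Krt18 at 1.28 ± 0.69 (adjusted p = 0.311) and 1.90 ± 0.66 (adjusted p = 0.15). In the diet comparison of gut-draining nodes, the small apolipoprotein genes Apoc1 (-1.0 ± 0.28, adjusted p = 0.00927) and Apoc4 (-0.91 ± 0.28, adjusted p = 0.0163) were lower on the deficient diet by edgeR.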
